A study of Saccharomyces cerevisiae with 12 samples.

Results

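Transcripts of the 137 genes for the proteins of the cytosolic ribosome were followed in *S. cerevisiae* strains that carried deletions of *TUP1*, *CYC8* or both by their labels. The genes were chosen by name, as every row of the raw count tables called RPL or RPS with a number and an optional A or B, together with *RPP0*, *RPP1A*, *RPP1B*, *RPP2A* and *RPP2B*, and were 137 of the 6400 genes named in the tables. Of these, 56 encode proteins of the 40S subunit and 81 proteins of the 60S subunit, 118 form 59 pairs of A and B copies and 19 have 1 copy. The study sequenced total RNA after rRNA depletion from 3 biological replicates of each of 4 strains, all derived from the *MAT*a laboratory strain BY4741 and grown to log phase in YPD with 2% glucose, at an OD600 of 0.6 to 0.8. The strains were wt, *tup1* (*TUP1* replaced by a *KAN* marker), *cyc8* (*CYC8* replaced by a *KAN* marker) and *tup1 cyc8* (*tup1::KAN*, *cyc8::URA3*), and all of them, wt included, carry the *his3Δ1*, *leu2Δ0*, *met15Δ0* and *ura3Δ0* alleles of BY4741. The methods list 1 strain for each genotype.

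Yeast ribosomes are built from 4 rRNAs and a set of proteins that are needed in nearly equal amounts, and the genes for these proteins are among the most transcribed in growing cells. Rap1 binds most of their promoters and, with Fhl1, Ifh1, Sfp1 and Hmo1, drives their transcription when the TOR and protein kinase A pathways signal that nutrients are plentiful. Many of the genes are left in A and B copies by an ancient duplication of the genome, and the copies of most pairs encode identical or nearly identical proteins. *RPP1A* and *RPP1B*, paired here by name, differ at 172 of 321 coding bases compared position by position. Tup1 and Cyc8 form a corepressor that sequence-specific proteins bring to promoters, where it keeps genes of, for example, glucose repression, flocculation and mating type silent.

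The depth was similar in all libraries, with 12643361 to 17898833 counts on named genes. *TUP1* was at 4.11% of its wt CPM (counts per 1000000 of the library, with the total scaled by TMM factors) in *tup1* and 4.32% in *tup1 cyc8*, and *CYC8*, its partner in the corepressor, was at 4.52% in *cyc8* but at 44.7% in *tup1 cyc8*. *CYC8* thus kept reads in *tup1 cyc8* despite the label of a deletion. The counts do not show from which part of the gene they come, so whether they go against that label cannot be told. Below, *tup1 cyc8* and double mutant stand for the libraries labelled *tup1 cyc8*, and each direction given for them rests on that label. *URA3*, the marker of the double mutant, had 411 to 687 counts in the *tup1 cyc8* libraries and at most 2 in any other library. Counts of the α-cell genes *MF(ALPHA)1* and *STE3* were at most 3.15 CPM in every library, against 399 to 830.2 CPM for the **a**-factor gene *MFA2*. The other **a**-cell genes were lower in *cyc8*, where *MFA1*, also for **a**-factor, had 15.4 to 33.8 CPM against 106 to 116 in wt, and *STE2*, for the α-factor receptor, had 159 to 168 against 471 to 538. They had 28.9 to 55.9 and 297 to 414 CPM in *tup1 cyc8*, and 68.3 to 86.5 and 530 to 595 in *tup1*. Their part in the results was not tested. All 137 ribosomal protein genes passed edgeR's filter on low counts in every fit, with between 367 and 72078 counts in a library. For 24 of them, over 50% of the 31-base stretches of the gene occur elsewhere in the genome, so the assignment of reads to these copies is less certain.

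The pair with the largest change is shown first as sequence, because the copies must be told apart by their reads. *RPS28A* and *RPS28B* encode a small protein of the 40S subunit, have no intron, and differ at 24 of the 204 bases of their coding sequence, shown here from the R64 assembly of RefSeq, 5′ to 3′, with the bases that differ between the copies in capitals.
RPS28A (chrXV:648804-649007, minus strand): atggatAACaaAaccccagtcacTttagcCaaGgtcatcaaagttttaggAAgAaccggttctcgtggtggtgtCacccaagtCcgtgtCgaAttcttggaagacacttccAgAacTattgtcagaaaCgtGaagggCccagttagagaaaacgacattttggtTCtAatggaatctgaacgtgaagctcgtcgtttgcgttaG
RPS28B (chrXII:673131-673334, plus strand): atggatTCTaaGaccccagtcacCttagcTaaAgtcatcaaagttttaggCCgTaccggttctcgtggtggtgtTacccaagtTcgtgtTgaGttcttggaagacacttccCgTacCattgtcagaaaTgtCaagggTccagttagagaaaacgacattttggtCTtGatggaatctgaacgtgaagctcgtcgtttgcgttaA
Only 2.87% of the 31-base stretches of either gene occur elsewhere in the genome. *RPS22A* and *RPS22B*, for another protein of the 40S subunit, form the pair with the second largest change and differ at 41 of 393 coding bases. The first 150 coding bases of each show 18 of these differences in capitals, and coordinates are those of the whole coding region with any intron.
RPS22A (chrX:74910-75302, minus strand): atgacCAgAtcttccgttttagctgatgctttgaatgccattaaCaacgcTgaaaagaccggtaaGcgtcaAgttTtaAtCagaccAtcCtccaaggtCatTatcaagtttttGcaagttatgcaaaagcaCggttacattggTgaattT
RPS22B (chrXII:856442-857317, plus strand): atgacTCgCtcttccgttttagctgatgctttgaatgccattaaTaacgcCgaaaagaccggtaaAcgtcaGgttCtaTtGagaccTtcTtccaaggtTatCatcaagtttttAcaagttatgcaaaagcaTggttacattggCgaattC
The intron of *RPS22B* holds *SNR44*, a small nucleolar RNA, whereas *RPS22A* has no intron.

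In wt the genes spanned a wide range of levels per coding length, from 55.7 to 7257 CPM per kb (median 1508). *RPS28A* was the highest at 7257 ± 432 CPM per kb (SD, n = 3), followed by *RPS15*, a single-copy gene for a protein of the 40S head, at 5429 ± 278, and *RPS22A* at 5156 ± 678. The next were *RPS30A*, for a small 40S protein, at 4460 ± 121 CPM per kb and *RPL43A*, for a zinc-binding 60S protein, at 4454 ± 489. The means of *RPS15* and *RPS22A*, and those of *RPS30A* and *RPL43A*, differed by less than their SD. The 5 lowest were all the minor copy of a pair. They were *RPL15B* at 55.7 ± 2.41 CPM per kb, *RPL22B* at 185 ± 21.8, *RPS9A* at 197 ± 28.8, *RPL7B* at 238 ± 7.98 and *RPL9B* at 244 ± 21.9 (SD, n = 3 each). *RPL15B* stood below the other 4, whose neighbours in this order were within their SD of each other except *RPS9A* and *RPL7B*. The A and B copies differed by a median of 1.02 on the log2 scale in wt, by at least 2-fold in 30 of 59 pairs and by at least 4-fold in 11.

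The share of the reads that fell on these genes was lower in *cyc8* and lowest in *tup1 cyc8*. The share was 13.6%, 14.0% and 13.5% of all counts in the wt libraries and 12.02%, 13.1% and 14.1% in *tup1*. It was 10.8%, 9.91% and 10.8% in *cyc8* and 9.14%, 8.75% and 9.27% in *tup1 cyc8*. The *tup1* libraries overlapped wt, whereas every *cyc8* library was below every wt and *tup1* library, and every *tup1 cyc8* library was below every *cyc8* library. The mean difference from wt was -0.61 percentage points in *tup1* (exact two-sided permutation test, p = 0.50), -3.17 in *cyc8* (exact p = 0.10) and -4.63 in *tup1 cyc8* (exact p = 0.10), where 0.10 is the smallest p that 3 libraries against 3 allow. The ratio of 60S to 40S counts was 1.35 ± 0.00422 for wt, 1.31 ± 0.0200 for *tup1*, 1.34 ± 0.0254 for *cyc8* and 1.34 ± 0.0375 for the double mutant (SD, n = 3 each). All *tup1* libraries, at 1.29 to 1.33, were below all wt libraries, at 1.35 to 1.36 (exact two-sided permutation test, p = 0.10), while the exact p was 0.50 for *cyc8* and 0.70 for the double mutant. In bulk RNA, fewer cells that transcribe a gene and less of its RNA per cell cannot be told apart, and neither can an effect of the growth rate of a strain and one of its genotype.

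**Figure D1:**
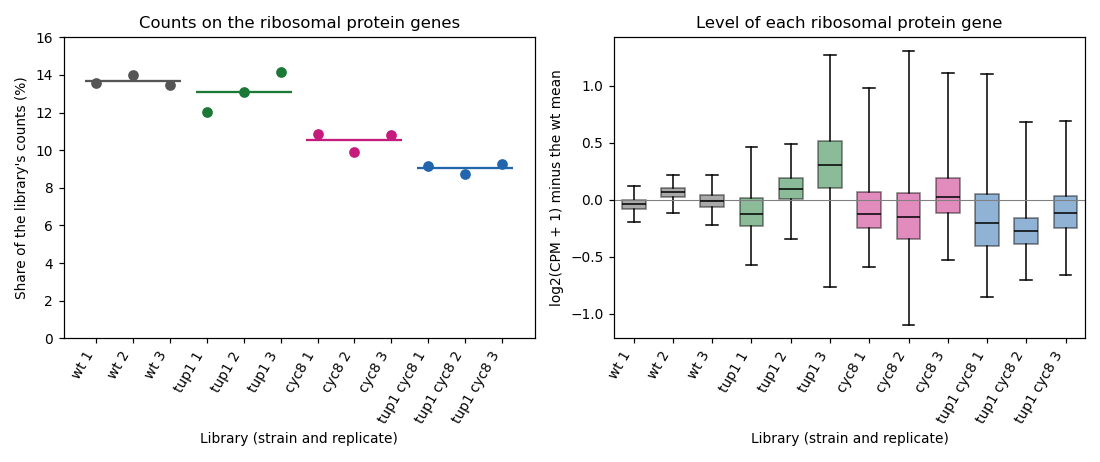
Left, share of each library's counts on the 137 genes (y axis, %) for the 12 libraries (x axis), with the strain mean as a line. Right, log2(CPM + 1) of each gene minus its wt mean, with a box from the first to the third quartile, the median as a line and whiskers to the lowest and highest gene. The shares in *cyc8* and *tup1 cyc8*, 8.75% to 10.8%, lie below all wt shares, while the boxes of most mutant libraries still cross 0, and the *tup1* medians spread from -0.13 to 0.30.

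The share of a library also depends on the counts that the other genes took, so the genes were set against the typical gene too. With TMM scaling, which sets the bulk of genes equal between libraries, the median log2 fold change of the 137 genes against wt was 0.10 for *tup1*, -0.10 for *cyc8* and -0.19 for the double mutant, beside -0.03, -0.03 and -0.03 over all genes tested. Scaling by library size alone moved the median of all genes by -0.12, -0.35 and -0.47 and gave medians of -0.03, -0.45 and -0.67 for the ribosomal protein genes. A scaling factor moves all genes of a library alike, and relative to the median of all genes the ribosomal protein genes stood at 0.14, -0.07 and -0.17 with TMM.

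The *tup1* replicates differed from one another across the whole set. The median of log2(CPM + 1) minus the wt mean was -0.13, 0.10 and 0.30 in *tup1* replicates 1, 2 and 3, with 38, 103 and 116 of the 137 genes above the wt mean. It was -0.13, -0.15 and 0.03 in *cyc8* and -0.21, -0.28 and -0.12 in *tup1 cyc8*, and between -0.04 and 0.07 in the wt libraries. All 3 *tup1 cyc8* libraries were below all wt libraries, *cyc8* replicate 3 lay within the wt range, and the *tup1* libraries overlapped those of wt and *cyc8*. The median fold change of *tup1* was 0.21 without its replicate 1 and 0.01 without its replicate 3.

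In *tup1* no ribosomal protein gene passed the test. Under edgeR (quasi-likelihood F-test, Benjamini-Hochberg adjustment over all genes tested, limit 0.01), 0 of 137 were higher, where 10.5% of all genes tested were, and 0 were lower, where 3.73% were. At an unadjusted p under 0.05 the count was 12 of 137 against 37.3% of all genes, and DESeq2 called 4 against 18.4%. With a 2-fold change required as well 0 were higher and 0 lower, beside 7.27% and 1.43% of all genes. The lowest fitted value was that of *RPL22B*, the minor copy of a gene pair for a dispensable 60S protein, with 63.7, 63.6 and 77.6 CPM in wt and 45.5, 55.5 and 39.7 in *tup1*. These values did not overlap, and the log2 fold change was -0.56 (SE 0.15, edgeR adjusted p = 0.025).

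In *cyc8* 3 ribosomal protein genes rose, *RPS28A*, *RPS22B* and *RPL15B*, which were 3 of 137 beside 16.3% of all genes tested, and 0 fell, beside 5.66%. At an unadjusted p under 0.05, 17 were lower against 24.5% of all genes, and DESeq2 called 7 lower against 11.5%. When libraries were scaled by size alone, which lowered the median of all genes by the amount given above, 1 was higher and 59 were lower, beside 12.2% and 27.2% of all genes. *RPS28A* was past a 2-fold change, the 1 gene of the set in any comparison with wt, beside 12.5% of all genes higher and 1.91% lower in *cyc8* at these limits. *RPS28A* had 1456, 1407 and 1578 CPM in the wt libraries, 1870.3, 1364 and 1790.5 in those of *tup1*, 2919, 3651 and 3193 in those of *cyc8* and 3171, 1551 and 2286 in the double mutant. The *cyc8* libraries were well above wt, while *tup1 cyc8* replicate 2 lay within the wt range and the other 2 *tup1 cyc8* libraries above it. The log2 fold change was 1.14 in *cyc8* (SE 0.13, edgeR adjusted p = 0.00046) and 0.67 in *tup1 cyc8* (SE 0.23, adjusted p = 0.039).

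*RPS28B*, the minor copy, moved the other way. It had 102, 133 and 111 CPM in the wt libraries, 158, 153 and 221 in those of *tup1*, 89.2, 53.1 and 79.0 in those of *cyc8* and 122, 95.5 and 114 in the double mutant. The *tup1* values lay above all others and the *cyc8* values below all others, with wt and *tup1 cyc8* overlapping between them. Against wt the log2 fold change was 0.60 in *tup1* (SE 0.16, edgeR adjusted p = 0.029) and -0.64 in *cyc8* (SE 0.20, adjusted p = 0.039), neither past the limit. Between the single mutants it passed, 1.26 lower on the log2 scale in *cyc8* than in *tup1* (log2 fold change -1.26, SE 0.20, adjusted p = 0.00074), and *RPS28A* was higher by 0.96 (SE 0.22, adjusted p = 0.0064). The mRNA of *RPS28B* is known to carry an element through which the Rps28 protein promotes its decapping with Edc3, and whether this bears on the opposite changes was not tested.

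*RPS22B* rose in *cyc8* and in *tup1 cyc8*. It had 346, 371 and 321 CPM in the wt libraries, 416, 475 and 388 in those of *tup1*, 534, 604 and 687 in those of *cyc8* and 586, 556 and 558 in the double mutant. All mutant libraries were above all wt libraries, and the log2 fold change was 0.81 in *cyc8* (SE 0.13, edgeR adjusted p = 0.0027), 0.72 in *tup1 cyc8* (SE 0.10, adjusted p = 0.00065) and 0.28 in *tup1* (SE 0.12, adjusted p = 0.12). Its major copy *RPS22A* had 2043, 2284 and 1752 CPM in the wt libraries, 1685, 2116 and 2008 in those of *tup1*, 1494, 1244 and 1603 in those of *cyc8* and 1664, 1428 and 1711 in the double mutant. The *cyc8* and *tup1 cyc8* libraries were below all wt libraries, with log2 fold changes of -0.48 (SE 0.15, edgeR adjusted p = 0.039) and -0.33 (SE 0.14, adjusted p = 0.077) that did not pass.

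*RPL15B*, for a protein deep in the 60S subunit, was the lowest of the 137 genes in wt and the third to rise in *cyc8*. It had 35.5, 32.6 and 34.7 CPM in the wt libraries, 46.4, 43.1 and 48.4 in those of *tup1*, 49.2, 62.9 and 61.7 in those of *cyc8* and 38.3, 44.0 and 35.0 in the double mutant. Both single mutants were above wt in every library, whereas *tup1 cyc8* replicate 3 lay within the wt range. The log2 fold change was 0.40 in *tup1* (SE 0.09, edgeR adjusted p = 0.015), 0.76 in *cyc8* (SE 0.13, adjusted p = 0.0028) and 0.20 in *tup1 cyc8* (SE 0.11, adjusted p = 0.15). The change in the libraries labelled *tup1 cyc8*, where *CYC8* was at 44.7% of wt, was lower than the sum of the changes in the single mutants by 0.99 on the log2 scale (interaction -0.99, SE 0.17, adjusted p = 0.0013). By edgeR it was the 1 gene of the set lower in this interaction, beside 6.79% of all genes tested, and 0 were higher, beside 2.32%. With an unadjusted p under 0.05 as the limit, 18 genes of the set were lower against 17.1% of all genes, and DESeq2 called 3 against 8.93%. For the higher side the count at an unadjusted p under 0.05 was 0 against 12.7% of all genes, and DESeq2 called 0 against 3.83%. *RPL15A*, its major copy, gives the bulk of the transcript, with 1016, 1066 and 1186 CPM in wt.

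The calls of *RPS22B* and *RPL15B* in *cyc8* were lost when some libraries were left out. Without wt replicate 1, wt replicate 2, *cyc8* replicate 2 or *cyc8* replicate 3 only *RPS28A* passed, with log2 fold changes of 0.72 to 0.87 for *RPS22B* and 0.69 to 0.78 for *RPL15B*, and without *cyc8* replicate 1 there were 6 higher and 2 lower.

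**Figure D2:**
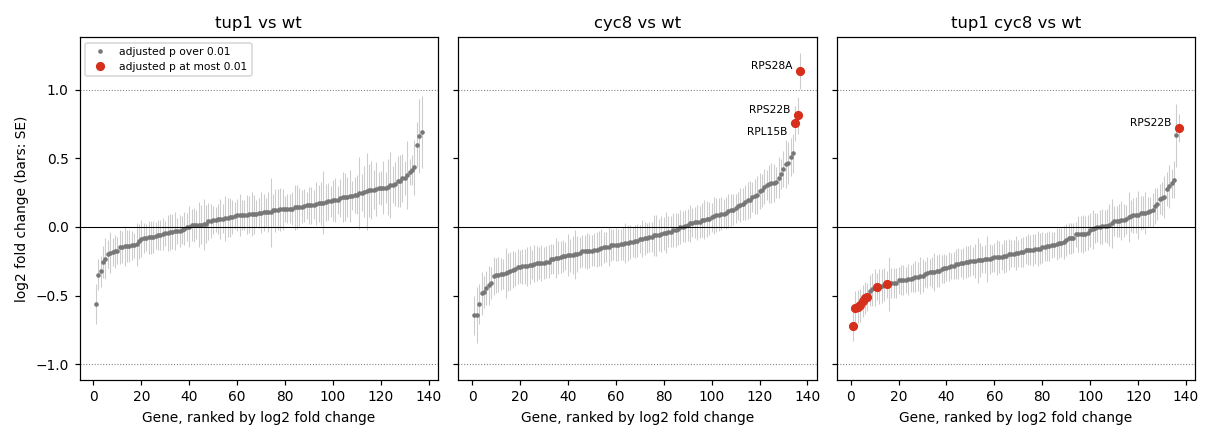
log2 fold change against wt (y axis, bars are SE) of the 137 genes ranked in each mutant (x axis), with genes at an adjusted p of at most 0.01 as large red points and dotted lines at a 2-fold change. No gene passes in *tup1*, 3 pass above 0 in *cyc8* with *RPS28A* past the dotted line at 1.14, and 1 above and 9 below 0 pass in *tup1 cyc8*.

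In *tup1 cyc8* 9 ribosomal protein genes fell and 1, *RPS22B*, rose, beside 13.6% of all genes tested lower and 21.0% higher. At a 2-fold change 0 fell and 0 rose, beside 1.88% and 13.9% of all genes. A count at an unadjusted p under 0.05 gave 50 lower against 28.6% of all genes. The share that fell was below the background with edgeR at the 0.01 limit but above it at this p and with DESeq2, and the median over the 137 genes was -0.19, with 103 of 137 fitted values below 0. DESeq2 called 32 lower, beside 16.3% of all genes, and 3 higher, where 1439 of 6281 genes were. Scaling by library size alone gave 114 lower and 0 higher, beside 49.8% and 12.8% of all genes.

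The largest decrease was in *RPL9A*, the major copy for a 60S protein near the base of the stalk, with 669, 755 and 687 CPM in wt and 389.7, 430.4 and 448 in *tup1 cyc8*. It had 611, 738 and 897 CPM in *tup1* and 472, 373 and 504 in *cyc8*. The *cyc8* and *tup1 cyc8* libraries lay below all wt and *tup1* libraries, and the log2 fold change was -0.72 in *tup1 cyc8* (SE 0.11, edgeR adjusted p = 0.00094) and -0.64 in *cyc8* (SE 0.14, adjusted p = 0.011). Of its 31-base stretches 24.9% occur elsewhere. The minor copy *RPL9B* had 127, 152 and 142 CPM in wt and 182, 192 and 236 in *cyc8*, with a log2 fold change of 0.54 (SE 0.14, adjusted p = 0.020) that did not pass.

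The next largest decreases in *tup1 cyc8* were smaller and alike in size. *RPS7B*, for a 40S protein, fell from 674, 708 and 564 CPM in wt to 410.1, 438 and 437 (log2 fold change -0.59, SE 0.12, edgeR adjusted p = 0.0040). *RPL36A*, the minor copy for a small 60S protein, fell from 129.6, 156 and 131 CPM to 82.8, 99.2 and 94.2 (log2 fold change -0.58, SE 0.12). *RPS6A*, for the 40S protein whose phosphorylation follows TOR activity, fell from 398, 430.1 and 433 CPM to 241, 298 and 304 (log2 fold change -0.57, SE 0.12), but 80.4% of its 31-base stretches occur elsewhere. In each of these genes the *tup1 cyc8* libraries were all below wt. *RPL8A* and *RPL18B*, for proteins of the 60S subunit, fell by 0.54 and 0.52 on the log2 scale. The number of genes lower in *tup1 cyc8* was 1 when any of wt replicates 1 and 2 and *tup1 cyc8* replicates 1 and 3 was left out, 4 without *tup1 cyc8* replicate 2, and 14 without wt replicate 3. *RPL9A* passed in each of these fits.

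Promoters of these genes are known for Rap1 sites. The letters ACCCNNACA, read on both strands in the 500 bases before the start codon of R64, were found for 54 of 137 genes (39.4%) and for 5.50% of the 5967 protein-coding genes with such a window. The first base of a match lay a median of 322 bases before the start codon. Among the called genes named above, *RPL9A*, *RPL36A*, *RPL8A* and *RPS6A* have a match, shown here in capitals with 10 bases on either side on the strand of the gene (the reverse complement of the letters for *RPL9A*). The letters were not in the windows of *RPS28A*, *RPS22B*, *RPL15B*, *RPS7B* and *RPL18B*.
RPL9A (chrVII:228621-228649, minus strand): tttccagaaaTGTTTGGGTttatttttta
RPL36A (chrXIII:650973-651001, plus strand): actgttttacACCCGTACAtttcacagtt
RPL8A (chrVIII:36246-36274, minus strand): tgaagaaaacACCCAAACAtatctaggcc
RPS6A (chrXVI:378807-378835, minus strand): ttctcattgaACCCATACAtttcaactat
The 54 genes with a match had a median log2 fold change of 0.09 for *tup1*, -0.11 for *cyc8* and -0.23 for the double mutant, and the 83 without had 0.11, -0.07 and -0.16. Those called in *cyc8*, all 3 higher, were without a match, and of the 9 lower in *tup1 cyc8* 5 had a match and 4 had none. The letters CCCCT, found at promoters that bind Mig1 or the stress factors Msn2 and Msn4, were in 27.0% of the 137 windows and 34.1% of all windows. The match to Abf1 was in 42.3% and 46.2%, and AAANTTT in 62.0% and 46.9%. Each motif was read on both strands and counted on its own, and overlapping matches of different motifs were kept.

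Introns, subunits and copy number set the genes apart little. In *tup1 cyc8* the median log2 fold change was -0.21 for the 56 40S genes and -0.18 for the 81 60S genes, -0.20 for the 89 with an intron and -0.17 for the 48 without. It was -0.19 for the 19 single-copy genes, -0.19 for the higher and -0.18 for the lower copies of the pairs in wt. In *cyc8* these medians ran from -0.13 for the 40S genes to -0.07 for the 60S genes. Of the 19 single-copy genes 0 passed in any of the 7 comparisons by edgeR at an adjusted p of at most 0.01. At an unadjusted p under 0.05 up to 11 of them did, all lower in *tup1 cyc8* against *tup1*, where 18.7% of all genes were lower, and DESeq2 called 5 of them lower there, beside 7.68%.

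Among the stalk genes *RPP0* encodes the protein that anchors the stalk to the 60S subunit. *RPP1A*, *RPP1B*, *RPP2A* and *RPP2B* encode the acidic proteins that recruit translation factors. None of the stalk genes was called by edgeR in any comparison. DESeq2 called 1 of them, *RPP1B*, higher in *cyc8*, where it called 1239 of 6284 genes higher. In *cyc8* the log2 fold change was -0.16 for *RPP0* and 0.31, 0.51, 0.18 and 0.32 for *RPP1A*, *RPP1B*, *RPP2A* and *RPP2B*. *RPP1B* had 478, 579 and 533 CPM in the wt libraries, 493, 605 and 871 in those of *tup1*, 731, 679 and 858 in those of *cyc8* and 670.5, 574 and 759 in the double mutant. Its *cyc8* libraries were above all wt libraries (SE 0.14, edgeR adjusted p = 0.022). The 5 genes had a median of 0.31 in *cyc8*, beside -0.10 for all 137 genes, and of 0.08 in *tup1 cyc8*.

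The ratio of the copies of a pair within a library does not depend on how libraries are scaled, and it was taken as the log2 of A over B, per coding length and with 0.5 counts added. It moved little in most pairs: the size of the shift from wt had a median of 0.15 for *tup1*, 0.19 for *cyc8* and 0.14 for the double mutant, and was under 0.25 in 41, 40 and 44 of 59 pairs. The SD between replicates had a median of 0.09 among wt libraries, 0.14 for *tup1*, 0.11 for *cyc8* and 0.12 for the double mutant. A shift of at least 0.5 was seen in 2, 7 and 6 pairs, and of at least 1 in 0, 3 and 1. These shifts are given with no test, since pairs are described by their order of change.

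*RPS28* shifted most. Its A copy gave a log2 ratio of 3.69 ± 0.25 in wt and 3.25 ± 0.28 in *tup1*, against 5.49 ± 0.55 in *cyc8* and 4.35 ± 0.34 in the double mutant (SD, n = 3 each). The B copy supplied 7.25% of the pair per length in wt and 2.27% in *cyc8*. The 3 *cyc8* libraries, at 5.03, 6.10 and 5.34, lay above all other libraries.

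*RPS22* and *RPL9* moved the other way, toward the minor B copy, in *cyc8* and in *tup1 cyc8*, and less far in *tup1*. The log2 ratio of *RPS22* was 2.54 ± 0.09 in wt and 2.18 ± 0.18 in *tup1*, against 1.25 ± 0.22 in *cyc8* and 1.49 ± 0.13 in the double mutant, and the share of *RPS22B* rose from 14.7% of the pair to 29.7% and 26.2%. That of *RPL9* was 2.33 ± 0.06, 1.99 ± 0.17, 1.14 ± 0.21 and 1.33 ± 0.08, and the share of *RPL9B* was 16.6% in wt, 31.2% in *cyc8* and 28.4% in *tup1 cyc8*. In both pairs every *cyc8* and *tup1 cyc8* library was below every wt and *tup1* library. Every *tup1* library was also below every wt library. The mean shifts from wt were -0.36 in *tup1* and -1.29 in *cyc8* for *RPS22*, and -0.34 and -1.19 for *RPL9*.

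*RPL7*, for a 60S protein, had 2.27 ± 0.07 in wt, 2.65 ± 0.18 in *tup1* and 1.57 ± 0.38 in *cyc8*, but 69.0% of its 31-base stretches occur elsewhere and its introns hold *SNR39* (*RPL7A*) and *SNR59* (*RPL7B*). *RPL36*, whose A copy is the minor one, went from -1.82 ± 0.26 in wt to -2.58 ± 0.28 in *cyc8*, away from the minor copy. *RPL15* was next with 4.99 ± 0.13 in wt and 4.66 ± 0.28 in *tup1*, against 4.07 ± 0.16 in *cyc8* and 4.33 ± 0.24 in the double mutant. The small nucleolar RNAs in introns were not told apart from the mRNA by these counts.

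*RPL22* and *RPS9*, whose minor copies are known to be spliced less when the protein of the pair is in excess, completed the 8 pairs. *RPL22* rose from 3.48 ± 0.21 in wt to 4.11 ± 0.28 in *tup1* and was 3.29 ± 0.11 in *cyc8*. *RPS9*, for a 40S protein involved in decoding accuracy, moved toward its minor A copy in *cyc8*, from -3.66 ± 0.24 to -3.12 ± 0.09. In *tup1 cyc8* the 3 libraries of these pairs were spread, with replicate 2 at 3.18 against 3.86 and 3.91 for *RPL22*, and at -2.91 against -3.69 and -3.70 for *RPS9*. The copies of *RPS1*, for a protein of the 40S platform, kept their ratio most closely, with a range of 0.0124 over the 4 strains, although *RPS1B* was among the 9 genes that fell in *tup1 cyc8*.

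**Figure D3:**
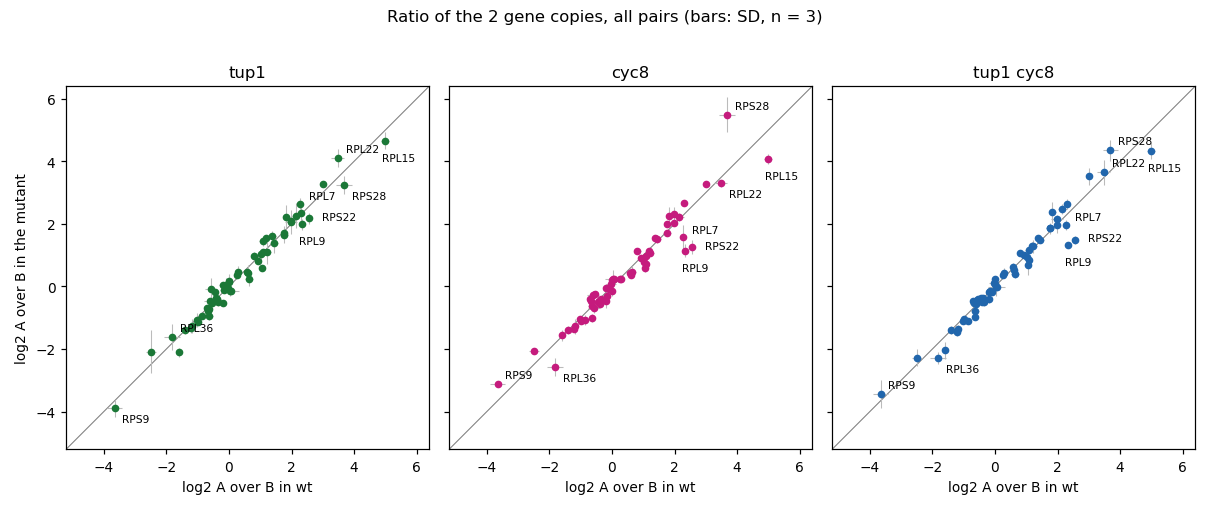
Mean log2 ratio of A to B copy per coding length in each mutant (y axis) against wt (x axis) for 59 pairs, with SD over 3 libraries as bars and a line where both are equal. Most pairs lie on the line, while *RPS28* stands above it at 5.49 in *cyc8* and *RPS22* and *RPL9* below it at 1.25 and 1.14.

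**Figure D4:**
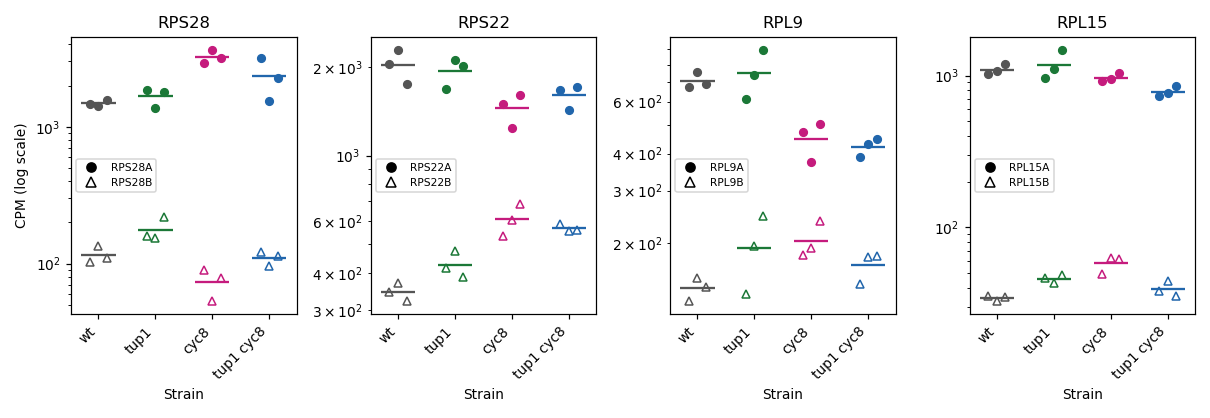
CPM (y axis, log scale, its range differing between panels) of the A copy (filled circles) and the B copy (open triangles) of 4 pairs in the 12 libraries by strain (x axis), with strain means as lines. *RPS28A* is highest and *RPS28B* lowest in *cyc8*, while *RPS22* and *RPL9* show a lower A and a higher B copy in *cyc8* than in wt.

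The remaining comparisons set mutant against mutant in 1 fit of the 12 libraries. In *cyc8* against *tup1* 10 ribosomal protein genes were lower, beside 5.00% of all genes tested, and 3 were higher, beside 9.77%. With library size alone the counts were 40 and 0, beside 12.8% and 5.52% of all genes. The lower genes were led by *RPS28B* (-1.26), *RPL36A* (-0.88) and *RPL9A* (-0.74) on the log2 scale, and the higher ones were *RPS28A* (0.96), *RPL7B* (0.76) and *RPS22B* (0.51). The 10 became 1 without *tup1* replicate 3 or without *cyc8* replicate 2, and 4 without *tup1* replicate 2, and the 3 became 0 without any of the *tup1* replicates or *cyc8* replicates 2 and 3, and 6 without *cyc8* replicate 1.

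In *tup1 cyc8* against *tup1* 17 genes were lower, beside 4.62% of all genes tested, and 0 were higher, beside 9.26%. For the higher side, 3 had an unadjusted p under 0.05 against 23.5% of all genes, and DESeq2 called 1 against 12.4%. The median was -0.29, beside 0.01 for all genes, and the lowest values were those of *RPL36A* (-0.90), *RPL9A* (-0.83) and *RPS6A* (-0.81). The 17 became 26 without *tup1* replicate 1, 4 without either of the other *tup1* replicates and 5 without any *tup1 cyc8* replicate. *RPL9A*, *RPS6A* and *RPL19B*, for a 60S protein at the intersubunit face, passed in all of them.

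In *tup1 cyc8* against *cyc8* 0 of 137 genes were higher, beside 3.09% of all genes, and 0 were lower by edgeR, beside 0.801%. At an unadjusted p under 0.05 the count was 17 against 27.3% of all genes in either direction, and DESeq2 called 3 against 8.19%. The median was -0.12, with 113 of 137 fitted values below 0, and 4 genes were lower without *cyc8* replicate 1 and 1 without *tup1 cyc8* replicate 2. The comparisons with *tup1* share its 3 libraries, and those with wt share the wt libraries.

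Lists of other genes of ribosome production had lower medians than the ribosomal protein genes in *tup1 cyc8*, a difference that was not tested. The shares of all genes tested, to be read beside the counts of each list, were 13.6% lower and 21.0% higher in *tup1 cyc8*, 5.66% and 16.3% in *cyc8* and 3.73% and 10.5% in *tup1*. Of 35 ribosome biogenesis genes, which process rRNA and assemble the subunits, 15 were lower and 1, *RPA14* of RNA polymerase I, higher in *tup1 cyc8*, with a median of -0.67, and in *cyc8* 1, *UTP4* of the small subunit processome, was lower and 0 higher, with a median of -0.32. *NOP4*, for a nucleolar protein of 60S assembly, passed a 2-fold decrease in *tup1 cyc8* (164 ± 46.7 CPM in wt and 80.5 ± 4.56, log2 fold change -1.02, SE 0.20, edgeR adjusted p = 0.0039). Of 9 chaperones that escort new ribosomal proteins, among them *SYO1* for Rpl5 and Rpl11 and *NAP1*, which is also a histone chaperone, 5 (*ACL4*, *BCP1*, *RRB1*, *SYO1* and *TSR2*) were lower in *tup1 cyc8* and 0 higher, with a median of -0.59, led by *ACL4*, the chaperone of Rpl4 (83.3 ± 18.0 and 39.1 ± 0.949 CPM, log2 fold change -1.08, SE 0.16, adjusted p = 0.00094). Of 43 mitochondrial ribosomal protein genes 19 were lower and 0 higher in *tup1 cyc8*, with a median of -0.35, and 1, *MRPL11*, was lower in *cyc8*, with a median of -0.48. In *tup1* 0 genes of these lists passed in either direction by edgeR or DESeq2. At an unadjusted p under 0.05, 4 biogenesis genes, 1 chaperone and 9 mitochondrial ribosomal protein genes were lower there, and 1 gene of the last list was higher, beside 37.3% of all genes in either direction. In *cyc8* 11 biogenesis genes, 5 chaperones and 22 mitochondrial ribosomal protein genes were lower at this p, beside 24.5% of all genes. There 1 gene of each list was higher, where 1638 of 5954 genes tested were. DESeq2 called 3, 2 and 8 genes of these lists lower in *cyc8*, beside 11.5%. It called 1, 1 and 0 of them higher, beside 1239 of 6284 genes.

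A list of 16 transcription regulators was not confined to those of the ribosomal protein genes. Of these, 3 (*RAP1*, *CKA1* and *RRP7*) were lower and 0 higher in *tup1 cyc8*. In *cyc8* 1 (*DOT6*, a repressor of ribosome biogenesis genes) was higher and 0 lower. In *tup1* 0 passed by edgeR or DESeq2, with 3 at an unadjusted p under 0.05, beside 37.3% of all genes. At that p 8 were lower in *cyc8*, beside 24.5% of all genes, and 3 were higher, beside 1638 of 5954 genes. DESeq2 called 1 lower in *cyc8*, beside 11.5% of all genes, and 1 higher, beside 1239 of 6284 genes. *RAP1* had 104 ± 12.1 CPM in wt and 89.8 ± 5.17 in *tup1*, against 75.8 ± 9.79 in *cyc8* and 71.1 ± 6.09 in the double mutant (SD, n = 3 each), and fell in *tup1 cyc8* (log2 fold change -0.54, SE 0.12, edgeR adjusted p = 0.0067). *FHL1*, the partner that recruits Ifh1, had -0.33 (SE 0.11, adjusted p = 0.034) in *tup1 cyc8*, *IFH1*, the coactivator, -0.27 (adjusted p = 0.096), *SFP1*, an activator controlled by TOR, -0.06 (adjusted p = 0.69) and *HMO1*, a high mobility group protein at these promoters, -0.37 (adjusted p = 0.014), none of which passed. *DOT6* had a log2 fold change of 0.98 in *cyc8* (SE 0.20, adjusted p = 0.0072), and *CKA1*, of casein kinase 2, and *RRP7*, of the CURI complex, had -0.61 (SE 0.10, adjusted p = 0.0016) and -0.88 (SE 0.20, adjusted p = 0.0074) in *tup1 cyc8*. Of 13 nutrient signalling genes 1 (*YAK1*, a kinase that acts against growth) was higher and 1 (*TPK3*, of protein kinase A) lower in *tup1 cyc8*. None of them passed in either single mutant by edgeR. Of 11 other translation genes 1 (*CAM1*) was higher and 2 (*EFB1* and *TEF4*, for subunits of elongation factor eEF1B, as is *CAM1*) lower in *tup1 cyc8*. In *cyc8* too *CAM1* was higher (log2 fold change 0.87, SE 0.12, edgeR adjusted p = 0.0011). *TEF4* was also lower there (-0.75, SE 0.14, adjusted p = 0.0051), and no other gene of this list passed. In *tup1* 0 of them passed by edgeR or DESeq2. At an unadjusted p under 0.05, 2 were higher and 1 lower in *tup1*, beside 37.3% of all genes in either direction. For the signalling genes 4 in *tup1* and 3 in *cyc8* had an unadjusted p under 0.05, beside 37.3% and 52.0% of all genes. DESeq2 called 0 of them in *tup1*, beside 18.4% of all genes, and 1 higher in *cyc8*, beside 1239 of 6284 genes.

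**Figure D5:**
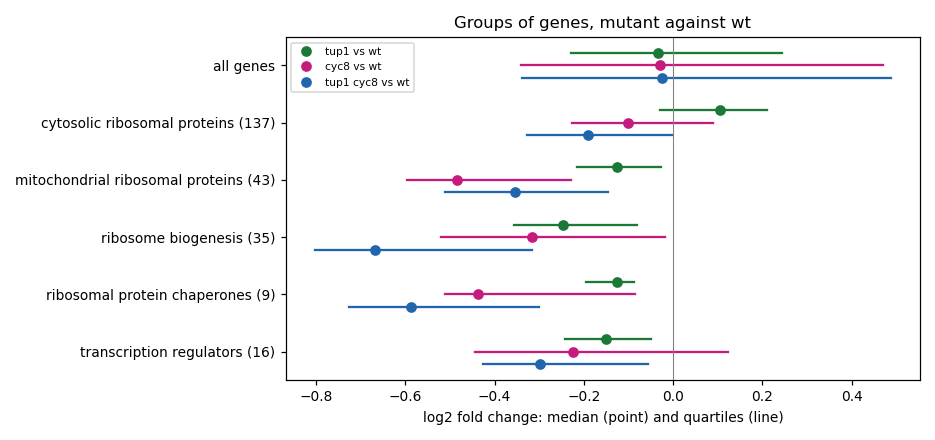
Median (points) and quartiles (lines) of the log2 fold change against wt (x axis) for all genes tested and 5 groups of genes (y axis, number tested in parentheses), by mutant. The medians are 0.10, -0.10 and -0.19 for the cytosolic ribosomal protein genes and -0.67 for the ribosome biogenesis genes in *tup1 cyc8*. Nutrient signalling and other translation genes, not drawn, had medians of -0.05, -0.08 and 0.06 and of 0.06, -0.07 and -0.07.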

How the data were processed

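The authors trimmed the reads with Trimmomatic 0.36, mapped them to the S288c genome with STAR 2.5.2b and counted unique gene hits with featureCounts of Subread 1.5.2. The deposited raw counts, 1 table per mutant with the same 3 wt libraries, were used as they are. The deposited DESeq2-normalised tables were not used here. The strand setting of the counting is not given in the sources used here. A row without a gene name held 0.0647% to 0.340% of the counts and was left out. Of 6400 names 6163 matched the R64 annotation. The members and gene lists were chosen with earlier results of these data known.

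Counts were filtered with filterByExpr, scaled with TMM factors and tested with glmQLFTest in edgeR 4.0.16 (R 4.3.3, limma 3.58.1), each mutant against wt in 6 libraries and the other comparisons, with CPM, in 12. Adjusted p-values (Benjamini-Hochberg) cover all genes tested, and calls are at 0.01, with a 2-fold change, the limit of the study's methods, where stated. All tests were two-sided. The 3 libraries of a strain are biological replicates by their titles. DESeq2 1.42.0, other scalings, no filter, a replicate block, leaving out repeated members and leaving out each library were the alternatives. Residuals of same-numbered *tup1* and *tup1 cyc8* libraries correlated at 0.171 to 0.343 in all 3 pairs. Unlike-numbered libraries of these strains correlated at -0.318 to 0.0938. No label states a pairing, so it is possible but not shown. The main fits, *tup1 cyc8* against *tup1* included, do not use it, and the replicate block is an alternative. In no other pair of strains did all 3 exceed 0.1. The tests were tested on simulated data. Genes were named if they had 1 of the 6 largest increases or decreases per mutant among calls, passed the 2-fold limit, belonged to the stalk, to the 8 pairs with the largest range of ratio or to the 5 highest or lowest per length, or were *RAP1*, *FHL1*, *IFH1*, *SFP1*, *HMO1* or list genes past the 2-fold limit. *RPS1B*, *RPL19B*, *RPS1* and the other list genes named fall outside this rule and were picked with their values known. Sequences are from RefSeq R64. Python 3.11.15, numpy 2.4.6, pandas 2.3.3, scipy 1.17.1 and matplotlib 3.10.9 were used.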

Additional observations from a re-analysis of the deposited data

Results flagged for a closer look

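*RPL15B*, the lowest of the 137 genes in wt, was the 1 ribosomal protein gene that passed edgeR's test of the interaction, in which the change from *tup1* to *tup1 cyc8* is set against that from wt to *cyc8* (interaction -0.99 on the log2 scale, SE 0.17, edgeR adjusted p = 0.0013). DESeq2 called 3 genes of the set, and without *tup1* replicate 1 edgeR called 2. *CYC8* was at 44.7% of its wt level in the libraries labelled *tup1 cyc8*. *RPL15B* was above wt in all 6 libraries of the single mutants and in 2 of 3 *tup1 cyc8* libraries, with the third, at 35.0 CPM, inside the wt range of 32.6 to 35.5 CPM. Its interaction passed in every alternative that was run. Groups of 3 libraries were not tested for a library that stands apart.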

How the results depend on the processing

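The direction of all 44 called gene values (a gene in a comparison) was kept under every alternative that held the gene. Among the alternatives that kept all libraries, 30 of them passed the limit each time. With each library left out in turn as well, 7 passed each time: *RPS28A* in *cyc8*, *RPL9A* in *tup1 cyc8*, *RPS28B* in *cyc8* against *tup1*, the *RPL15B* interaction, and *RPL9A*, *RPS6A* and *RPL19B* in *tup1 cyc8* against *tup1*. Leaving out the repeated genes removed their rows from the main fit without a new fit. The 35 values it kept passed by construction, so it is no check of them. *RPS6A*, with 80.4% of its stretches repeated, was not among them, and its place among the 7 rests on the other alternatives. Counts with RLE factors, TMM factors from other genes, no filter and repeated genes left out stayed within 1.5 times. DESeq2 called more genes, given here with the number called among all 6281 to 6290 genes in parentheses. In *tup1* it called 3 higher (827) and 1 lower (329), and in *cyc8* 6 (1239) and 7 (723). In *tup1 cyc8* it called 3 higher (1439) and 32 lower (1021), and in *cyc8* against *tup1* 21 lower (504). In *tup1 cyc8* against *cyc8* 3 were lower (171). Against *tup1* 1 was higher (778) and 42 were lower (483), and 3 were lower in the interaction (562). The cause was not tested.

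Scaling by library size alone lowered all genes in the mutants. It gave 1 gene lower in *tup1* and 1 higher and 59 lower in *cyc8* (median -0.45), where 12.2% and 27.2% of all genes were. In *tup1 cyc8* 0 were higher and 114 lower (median -0.67), beside 12.8% and 49.8%. In *cyc8* against *tup1* 0 were higher and 40 lower (median -0.39), beside 5.52% and 12.8%. In *tup1 cyc8* 2 were lower against *cyc8* (median -0.23) and 95 against *tup1* (median -0.62). For these 2 comparisons and for *tup1* the shares were not taken, and the medians of all genes were -0.11, -0.31 and -0.16. Without the repeated genes the share of counts fell by 2.72 percentage points in *cyc8* and fell by 4.01 in *tup1 cyc8*.

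With the replicate block, 1 gene was higher in *cyc8* and 4 were lower in *tup1 cyc8*, and no other count moved by over 1.5 times, although 11 called values no longer passed. Same-number residuals of wt correlated at -0.0988 to 0.241 with *tup1*, -0.140 to -0.0496 with *cyc8* and -0.0687 to 0.0710 with *tup1 cyc8*, so that the numbers are not shown to pair these samples.

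When each library was left out in turn, the number of genes ran from 1 to 6 higher and 0 to 2 lower in *cyc8*, 1 to 2 higher and 1 to 14 lower in *tup1 cyc8*, 0 to 6 higher and 1 to 14 lower in *cyc8* against *tup1*, 0 to 4 lower in *tup1 cyc8* against *cyc8*, 4 to 26 lower in *tup1 cyc8* against *tup1*, and 1 to 2 lower in the interaction, whose median ran from -0.32 to -0.10. The ratios of the 8 named pairs moved by less than their SD in each alternative. Scaling, filter and test cannot move a ratio taken from raw counts within a library. Leaving out 1 of 3 libraries cannot move a mean by more than the SD, so this outcome was fixed and is no check of the shifts. With 3 libraries per strain, the smallest changes called in any comparison were near 0.4 on the log2 scale. Larger ones also failed, such as -0.56 for *RPL22B* in *tup1* (SE 0.15, edgeR adjusted p = 0.025).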
